A study of Homo sapiens with 16 samples.

Results

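The cyclins and cyclin-dependent kinases (CDKs) that carry cells through G1 and into S phase were examined in BRAF inhibitor–resistant (BRAFi-R) melanoma cells treated with corin. They are 10 of the 34228 genes in the table, chosen by symbol: the D cyclins *CCND1*, *CCND2* and *CCND3*, their kinases *CDK4* and *CDK6*, the E cyclins *CCNE1* and *CCNE2*, cyclin A2 (*CCNA2*), their kinase *CDK2*, and the phosphatase *CDC25A*. RNA-Seq was carried out on 451Lu-R and 1205Lu-R, human melanoma lines that carry acquired resistance to PLX4032 (vemurafenib), which blocks mutant BRAF. Each line was grown for 24 h with 2.5 μM corin, a molecule with 2 inhibitory arms that targets HDAC1/2 and LSD1 in the CoREST repressor complex, or with the DMSO vehicle, giving 4 groups of 2 libraries. The BRAFi-R cells were selected and maintained in PLX4032, but PLX4032 was not part of either treatment compared here. Each model is a single cell line, and the replicates are not described as separate cultures, so p-values measure only the spread between these libraries, which may be technical.

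In the classical scheme of G1, growth signals raise D cyclins, which activate CDK4 and CDK6 to begin phosphorylation of the RB protein. RB then releases E2F factors, which drive the genes for E cyclins, cyclin A2, CDC25A and the DNA replication machinery, and cyclin E–CDK2 completes the step into S phase. In melanoma, signaling through mutant BRAF and ERK raises cyclin D1, and the CDKN2A locus, which encodes an inhibitor of CDK4 and CDK6, is often lost.

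Corin was followed by lower transcript levels of both D cyclin kinases, both E cyclins, *CCNA2*, *CDK2* and *CDC25A* in both cell lines. The D cyclins did not follow them in 451Lu-R, where *CCND1* rose 4.03-fold and *CCND2* was detected only under corin. In 1205Lu-R *CCND1* and *CCND3* fell, by 0.28 and 0.53 log2 units. *CCND2* again had estimated counts only under corin, but 1 DMSO library of 1205Lu-R held 73 counts of a gene that shares its exons. Counting genes with an adjusted p under 0.05 (edgeR), 3 of the 10 genes were up and 7 down in 451Lu-R, where 41.3% of the 14530 genes tested rose and 38.6% fell. In 1205Lu-R, 1 was up and 9 were down, where 40.4% of the 14563 genes tested rose and 37.8% fell. With a fold change of at least 2 required as well, in 451Lu-R 2 were up and 4 down (22.2% and 13.3% of all genes), and in 1205Lu-R 1 was up and 7 down (22.0% and 9.8% of all genes). At a fold change of at least 4 and an adjusted p under 0.001, 2 were up and 4 down in 451Lu-R (12.4% and 2.72% of all genes), and 1 was up and 2 were down in 1205Lu-R (11.3% and 1.43% of all genes). The median log2 fold change of the 10 genes was -0.81 in 451Lu-R and -1.18 in 1205Lu-R, against 0.03 over all genes tested in either line. At its lower bound *CCND2* was still the highest value in each line, so the medians could not move with that bound. *CCND2* entered the tests only through its corin libraries, so it could appear only as a gene that rose.

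**Figure D1:**
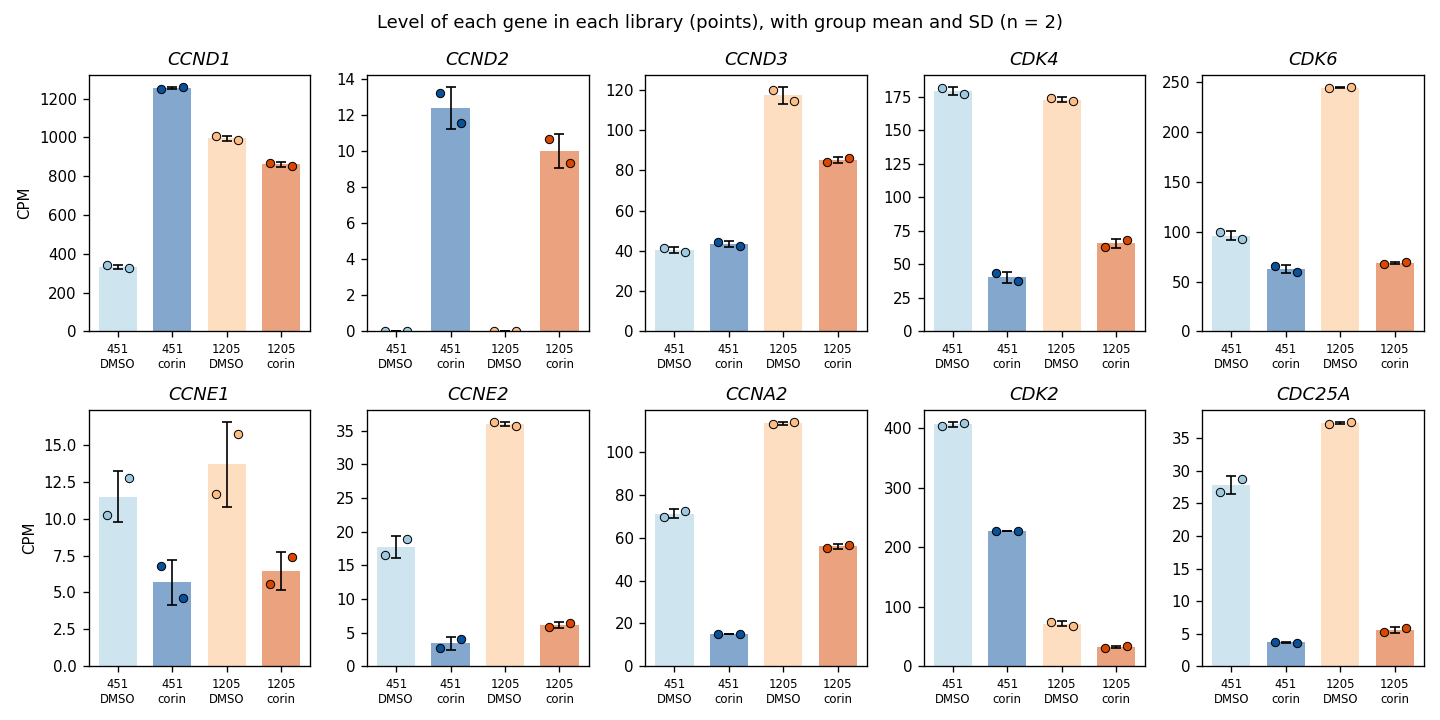
Counts scaled to 1000000 per library (CPM, y axis from 0, 1 scale per gene) of the 10 genes in the 4 groups. Points are libraries, bars are group means and error bars are the SD of 2 libraries. Under corin, *CDK4*, *CDK6*, *CCNE1*, *CCNE2*, *CCNA2*, *CDK2* and *CDC25A* sat below DMSO in both lines, whereas *CCND1* rose from 333 to 1255 CPM in 451Lu-R.

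Libraries held between 9516687 and 11797788 estimated counts, and no library stood apart in depth. The melanocytic markers MITF, SOX10, TYR, TYRP1, DCT, MLANA, PMEL and S100B summed to 13654 to 13727 CPM in 451Lu-R under DMSO and to 8.29 to 8.56 CPM in 1205Lu-R under DMSO, where SOX10, TYR and TYRP1 were at 0. Under corin the sums were 11702 to 11748 and 23.2 to 26.5 CPM, so the defining melanocytic markers were high in 451Lu-R and absent or low in 1205Lu-R. The dedifferentiated melanoma markers AXL, NGFR, WNT5A, EGFR, VIM and ZEB1 summed to 4482 to 4501 CPM in 451Lu-R and 10332 to 10341 CPM in 1205Lu-R under DMSO, and to 5513 to 5517 and 10450 to 10595 CPM under corin. In 451Lu-R under DMSO, 4 of these 6 genes reached 1 CPM in both libraries, and all 6 did in each other group. Across all 8 libraries, lists of 4 keratinocyte, 4 leukocyte and 4 endothelial genes summed to at most 5.58, 6.57 and 28.2 CPM. The sum of 5 fibroblast genes went from 50.5 to 54.0 CPM under DMSO to 153 to 156 CPM under corin in 451Lu-R, and from 197 CPM to 101 to 104 CPM in 1205Lu-R, with LUM or COL3A1 at 0 in each group. This sum moved in the same direction as *CCND1* in each line, and its part in the result was not tested. In bulk RNA, fewer cells in a phase of the cycle and less RNA per cell cannot be told apart, and this applies to every gene below.

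The D cyclins were examined first, since they respond to growth signals upstream of RB. *CCND1* (cyclin D1, ENSG00000110092, GRCh38 chromosome 11, 69641156 to 69654474, plus strand) stood at 342 and 325 CPM in the 451Lu-R libraries under DMSO and at 1252 and 1259 CPM under corin. The 1205Lu-R libraries gave 1006 and 987 CPM under DMSO and 869.8 and 854 CPM under corin. The groups did not overlap in either line, and the direction was opposite between them. With 2 libraries per group, absence of overlap here and below only describes the values, and its share over all genes was not counted. *CCND1* rose in 451Lu-R by 2.01 log2 units (SE 0.023, edgeR adjusted p = 4.08e-23) and fell in 1205Lu-R by 0.28 (SE 0.021, adjusted p = 5.50e-11). The difference between the 2 responses, 1205Lu-R minus 451Lu-R, was -2.33 (SE 0.035, interaction term, edgeR adjusted p = 5.90e-22). Under DMSO, 451Lu-R had the lowest *CCND1* level of the 4 groups, and under corin it had the highest, each neighbour in the order differing from the next with an adjusted p of at most 5.04e-14 except for the 1205Lu-R groups, at 3.61e-11 (edgeR, all 8 libraries). Of the exonic bases of *CCND1*, 10.4% are shared with *LTO1* on the opposite strand, which was at 30.6 ± 1.43 CPM (SD, n = 2) in 451Lu-R under DMSO and 25.0 ± 0.623 under corin.

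*CCND2* (cyclin D2, ENSG00000118971, chromosome 12, 4269771 to 4305353, plus strand) had 0 estimated counts in all 4 DMSO libraries. Under corin it had 156 and 116 counts in 451Lu-R, or 13.2 and 11.6 CPM. In 1205Lu-R it had 101 and 104 counts under corin, or 10.7 and 9.33 CPM. Corin and DMSO libraries did not overlap in either line. A floor of 3 counts in each DMSO library gave lower bounds. *CCND2* was at least 42.3-fold higher under corin in 451Lu-R and at least 36.1-fold higher in 1205Lu-R. These bounds carry no p-value, because *CCND2* entered the edgeR tests only through its corin libraries. Both DMSO groups were at 0, so the difference between the lines in this response was not estimated.

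A second annotated gene limits this value. ENSG00000285901 lies on the same strand and shares 999 exonic bases with *CCND2*, 12.5% of the exonic bases of the cyclin, and Salmon divides reads that fit both genes between them. ENSG00000285901 had 0 estimated counts in both 451Lu-R libraries under DMSO and 234 and 187 under corin. In 1205Lu-R it had 0 and 73 under DMSO and 364 and 392 under corin, so 1 DMSO library of this line held reads that may belong to either gene. The lower bound of 36.1-fold for *CCND2* in this line holds only if those reads are not from *CCND2*. For the sum of both genes, the level went from 0 to 31.6 ± 2.0 CPM (SD, n = 2) in 451Lu-R and from 3.44 ± 4.86 to 46.8 ± 3.06 CPM in 1205Lu-R. In 1205Lu-R the sum still rose, by 3.71 log2 units (edgeR). Which of the 2 genes the reads came from was not tested.

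*CCND3* (cyclin D3, ENSG00000112576, chromosome 6, 41934934 to 42050357, minus strand) stood at 41.5 and 39.3 CPM in 451Lu-R under DMSO and at 44.3 and 42.2 CPM under corin. In 1205Lu-R the levels were 120.2 and 114 CPM under DMSO and 84.2 and 86.2 CPM under corin. The groups were close but did not overlap in 451Lu-R and were well apart in 1205Lu-R. The log2 fold change was 0.20 in 451Lu-R (SE 0.071, edgeR adjusted p = 0.0163). That call was lost with DESeq2 (adjusted p = 0.147), with scaling to library size alone (0.207), without DMSO replicate 2 (0.0898) and without corin replicate 1 (0.104). In 1205Lu-R *CCND3* fell by 0.53 (SE 0.044, adjusted p = 2.75e-10), and the difference between the responses was -0.77 (SE 0.079, adjusted p = 4.49e-08).

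To compare the D cyclins with each other, CPM were divided by the exonic length of each gene. Summed over the 3 genes, D cyclin transcripts went from 79.0 and 75.1 CPM per kilobase under DMSO to 272 and 273 under corin in 451Lu-R. In 1205Lu-R the sum went from 232 and 227 to 199 and 195 CPM per kilobase. The 451Lu-R cells, which held the smaller pool under DMSO, held the larger pool under corin. *CCND1* made up 90.9% of the sum in both 451Lu-R libraries under DMSO and 96.6% and 96.8% under corin. In 1205Lu-R its share was 91.0% and 91.3% under DMSO and 92.0% and 91.7% under corin. *CCND3* went from 9.13% and 9.09% to 2.83% and 2.68% in 451Lu-R, and from 8.98% and 8.73% to 7.36% and 7.66% in 1205Lu-R. *CCND2* took up to 0.672% of the sum in a library, up to 1.11% without division by length, and up to 3.01% with ENSG00000285901 added, where the lowest *CCND1* share was 89.7%. With the canonical transcript length, *CCND1* made up 79.7% to 92.9% and *CCND3* up to 20.3%. Cyclin D1 transcripts were the main D cyclin transcripts in all 8 libraries under each of these forms.

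**Figure D2:**
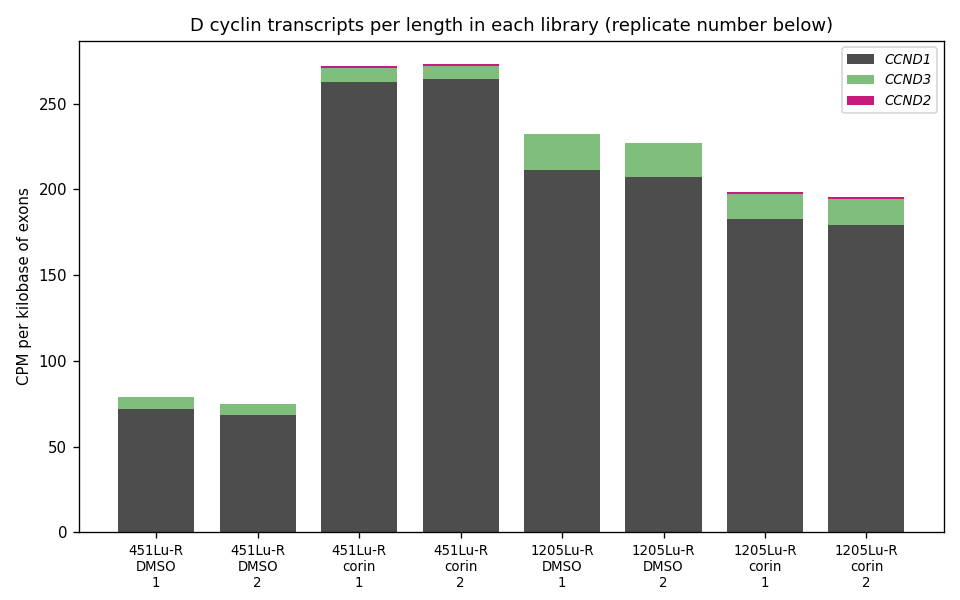
D cyclin transcripts in each of the 8 libraries, in CPM per kilobase of exons (y axis from 0), stacked by gene. *CCND1* fills 90.9% to 96.8% of each bar, the thin top segment under corin is *CCND2*, and the bars rise from 79.0 and 75.1 to 272 and 273 in 451Lu-R.

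The exchange among D cyclins depended on which of them entered the ratio. The log2 ratio of *CCND2* to *CCND1* counts, with 0.5 added to each, was -12.86 and -12.62 in 451Lu-R under DMSO and -6.56 and -6.76 under corin, a difference of 6.08. In 1205Lu-R the ratio was -14.44 and -14.36 under DMSO and -6.34 and -6.51 under corin, a difference of 7.97. These sizes are set by the value added to a count of 0. When *CCND3* was added to *CCND2*, the difference was -1.45 in 451Lu-R and -0.09 in 1205Lu-R, in the opposite direction. An exact permutation test over 2 libraries against 2 gave a two-sided p = 0.33 for each ratio, which is the smallest p this design allows.

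The kinases that bind D cyclins fell in both lines. *CDK4* (ENSG00000135446, chromosome 12, 57747727 to 57756013, minus strand) stood at 181 and 177 CPM in 451Lu-R under DMSO and at 43.3 and 37.6 CPM under corin. Its levels in 1205Lu-R were 174 and 172 CPM under DMSO and 63.2 and 68.0 CPM under corin. All DMSO libraries lay above all corin libraries. *CDK4* fell by 2.04 log2 units in 451Lu-R (SE 0.052, edgeR adjusted p = 7.83e-18) and fell by 1.47 in 1205Lu-R (SE 0.043, adjusted p = 3.62e-18), and the difference between these responses was 0.53 (SE 0.077, adjusted p = 5.64e-06). The exons of *CDK4* share 44.2% of their bases with *TSPAN31* on the opposite strand, and whether reads were counted by strand is not given in the sources used here. *TSPAN31* was at 24.3 ± 2.25 CPM (SD, n = 2) under DMSO and 24.3 ± 1.39 under corin in 451Lu-R, and at 20.8 ± 2.15 and 20.6 ± 0.965 in 1205Lu-R, and it was not called in either (edgeR adjusted p = 0.329 and 0.422).

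*CDK6* (ENSG00000105810, chromosome 7, 92604921 to 92836573, minus strand), the other kinase of D cyclins, stood at 99.3 and 92.9 CPM in 451Lu-R under DMSO and at 65.9 and 60.0 CPM under corin. The 1205Lu-R libraries gave 244 and 245 CPM under DMSO and 67.7 and 69.6 CPM under corin. The DMSO libraries of the 2 lines lay far apart, and the corin libraries of the 2 lines lay close together. *CDK6* fell by 0.51 log2 units in 451Lu-R (SE 0.055, edgeR adjusted p = 5.94e-08) and fell by 1.90 in 1205Lu-R (SE 0.039, adjusted p = 7.94e-21). The difference between the responses was -1.43 (SE 0.071, adjusted p = 3.17e-13), so that *CDK4* fell more in 451Lu-R and *CDK6* fell more in 1205Lu-R.

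Per kilobase, the ratio of *CDK6* to *CDK4* accordingly went from 0.138 and 0.133 to 0.384 and 0.404 in 451Lu-R, and from 0.354 and 0.361 to 0.271 and 0.259 in 1205Lu-R. The ratio of summed D cyclin to summed *CDK4* and *CDK6* transcripts went from 1.18 and 1.16 to 14.04 and 16.03 in 451Lu-R. In 1205Lu-R it went from 3.05 and 3.01 to 7.66 and 7.06. With the canonical transcript length in place of all exons, the ratio went from 0.956 and 0.934 to 11.05 and 12.6 in 451Lu-R, and from 2.60 and 2.56 to 6.26 and 5.78 in 1205Lu-R. The ratio was higher under corin in both lines with either length, whereas in 451Lu-R under DMSO the length used decided whether it lay above or below 1. These are ratios of transcripts, and no protein was measured.

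**Figure D3:**
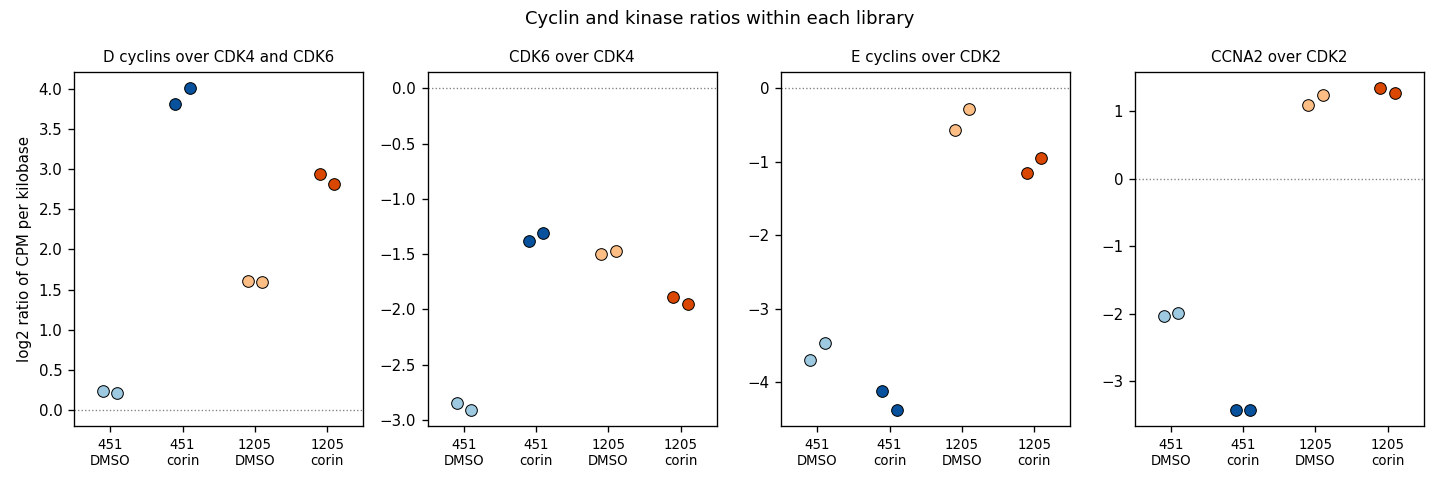
Log2 ratios of CPM per kilobase within each library, 1 panel per ratio, with 2 points per group (1 per library) and a dotted line at equal levels. D cyclins over *CDK4* and *CDK6* rose under corin in both lines, *CDK6* over *CDK4* moved up in 451Lu-R and down in 1205Lu-R, and *CCNA2* over *CDK2* lay below the dotted line in 451Lu-R and above it in 1205Lu-R. The part of *PMEL*, which shares exonic bases with *CDK2*, in the *CDK2* ratios was not tested.

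The E cyclins, which activate CDK2 at the start of S phase, were with *CCND2* and *CDC25A* the least abundant members per kilobase. *CCNE1* (ENSG00000105173, chromosome 19, 29811991 to 29824312, plus strand) stood at 10.3 and 12.7 CPM in 451Lu-R under DMSO and at 6.78 and 4.60 CPM under corin. In 1205Lu-R the levels were 11.7 and 15.7 CPM under DMSO and 5.57 and 7.38 CPM under corin. Replicates were visibly apart in every group, and DMSO and corin libraries did not overlap. *CCNE1* fell by 0.89 log2 units in 451Lu-R (SE 0.18, edgeR adjusted p = 0.000169) and fell by 1.13 in 1205Lu-R (SE 0.17, adjusted p = 2.74e-06). The difference between the lines was -0.29 (SE 0.28, adjusted p = 0.431).

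*CCNE2* (ENSG00000175305, chromosome 8, 94879770 to 94896678, minus strand) had the larger log2 fold change of the 2 E cyclins in each line. It stood at 16.6 and 18.9 CPM in 451Lu-R under DMSO and at 2.71 and 4.10 CPM under corin, the latter resting on 32 and 41 estimated counts. Its levels in 1205Lu-R were 36.2 and 35.8 CPM under DMSO and 5.76 and 6.39 CPM under corin. The groups were far apart in both lines. *CCNE2* fell by 2.30 log2 units in 451Lu-R (SE 0.17, edgeR adjusted p = 2.49e-10) and fell by 2.63 in 1205Lu-R (SE 0.11, adjusted p = 2.37e-15), with a difference between the lines of -0.37 (SE 0.23, adjusted p = 0.198). Its exons share 37.0% of their bases with *INTS8* on the opposite strand, which rose in 451Lu-R from 45.7 ± 2.17 to 58.2 ± 1.61 CPM (SD, n = 2) and fell in 1205Lu-R from 68.8 ± 2.11 to 64.2 ± 2.09 CPM (edgeR adjusted p = 2.70e-06 and 0.00433). Per kilobase, the ratio of *CCNE2* to *CCNE1* was 0.905 and 0.833 in 451Lu-R under DMSO and 0.224 and 0.499 under corin, and in 1205Lu-R 1.74 and 1.27 under DMSO and 0.579 and 0.485 under corin. With the canonical length, the 451Lu-R libraries under DMSO gave 1.18 and 1.09, so the order of the E cyclins in that group turned with the length used. With either length, *CCNE2* lay above *CCNE1* in 1205Lu-R under DMSO and below it under corin in both lines.

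*CCNA2* (ENSG00000145386, chromosome 4, 121816444 to 121823883, minus strand), the cyclin of S phase and G2, stood at 69.6 and 72.6 CPM in 451Lu-R under DMSO and at 14.9 and 15.0 CPM under corin. The 1205Lu-R libraries gave 113 and 114 CPM under DMSO and 55.2 and 56.8 CPM under corin. The replicates were nearly equal and the groups did not overlap. *CCNA2* fell by 2.15 log2 units in 451Lu-R (SE 0.079, edgeR adjusted p = 2.35e-15) and fell by 1.09 in 1205Lu-R (SE 0.047, adjusted p = 2.78e-15). The difference of 1.02 (SE 0.087, adjusted p = 2.50e-09) meant a smaller fall in 1205Lu-R. *EXOSC9*, on the opposite strand, shares 9.24% of the exonic bases of *CCNA2*.

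*CDK2* (ENSG00000123374, chromosome 12, 55966781 to 55972789, plus strand), the kinase of E and A cyclins, stood at 403 and 409 CPM in 451Lu-R under DMSO and at 228 and 227 CPM under corin. In 1205Lu-R the levels were 74.6 and 68.3 CPM under DMSO and 30.9 and 33.3 CPM under corin. Both 451Lu-R groups lay far above both 1205Lu-R groups. *CDK2* fell by 0.74 log2 units in 451Lu-R (SE 0.027, edgeR adjusted p = 1.86e-15) and fell by 1.23 in 1205Lu-R (SE 0.067, adjusted p = 2.03e-13), with a difference of -0.53 (SE 0.075, adjusted p = 4.71e-06). *CDK2* shares 89 exonic bases with the melanosome gene *PMEL* on the opposite strand, 2.29% of its exonic bases. *PMEL* was at 8437 ± 16.1 CPM (SD, n = 2) in 451Lu-R under DMSO and 7226 ± 51.3 under corin, and at 0.469 ± 0.535 and 1.38 ± 0.425 in 1205Lu-R. Its part in the *CDK2* level was not tested.

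*CDC25A* (ENSG00000164045, chromosome 3, 48157146 to 48188417, minus strand), the phosphatase that removes inhibitory phosphates from CDK2, stood at 26.8 and 28.8 CPM in 451Lu-R under DMSO and at 3.73 and 3.60 CPM under corin. Its levels in 1205Lu-R were 37.2 and 37.5 CPM under DMSO and 5.25 and 5.85 CPM under corin. The corin libraries were low in both lines and rested on 36 to 65 estimated counts each. *CDC25A* fell by 2.81 log2 units in 451Lu-R (SE 0.13, edgeR adjusted p = 1.68e-13) and fell by 2.82 in 1205Lu-R (SE 0.11, adjusted p = 8.60e-16), the furthest fall among the 10 genes in either line. The difference between the lines was -0.04 (SE 0.20, adjusted p = 0.935).

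Promoters were available for 6 of the 10 genes (RefSeq, GRCh38.p14), namely *CDC25A*, *CCNA2*, *CCND3*, *CDK4*, *CDK6* and *CCNE1*, with 9 start sites in all. *CDC25A* and *CCNA2* are shown because both fell in both lines and their windows hold the only E2F or CRE match among these starts. The sequences give the 250 bases before each start, 5′ to 3′ on the strand of the gene, with capitals for the match.
*CDC25A* (chr3:48188418-48188667, minus strand, capitals mark the E2F match): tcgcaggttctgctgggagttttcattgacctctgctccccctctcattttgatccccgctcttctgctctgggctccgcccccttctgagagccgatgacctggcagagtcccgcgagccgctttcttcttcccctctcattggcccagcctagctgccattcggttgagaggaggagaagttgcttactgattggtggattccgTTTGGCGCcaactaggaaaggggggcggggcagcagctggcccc
*CCNA2* (chr4:121823884-121824133, minus strand, capitals mark the CRE match): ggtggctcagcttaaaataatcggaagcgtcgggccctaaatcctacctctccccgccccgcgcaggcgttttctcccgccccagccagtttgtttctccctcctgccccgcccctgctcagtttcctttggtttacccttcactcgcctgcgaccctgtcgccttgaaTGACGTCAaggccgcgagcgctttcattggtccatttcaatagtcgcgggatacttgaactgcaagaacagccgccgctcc
Windows of 300 bases, 250 before and 50 after each start, were searched on both strands for E2F motifs (TTTCCCGC, TTTGGCGC, TTTCGCGC or TTTGCCGC), the cyclic AMP response element or CRE (TGACGTCA), AP-1 motifs (TGAGTCA or TGACTCA) and the GC box (GGGCGG), none of which contains another. *CDC25A* held 1 E2F match, beginning 44 bases before the start, where 3.31% of 35116 promoters held one. *CCNA2* held 1 CRE match, beginning 81 bases before the start, where 1.85% of promoters held one. GC boxes, found in 45.0% of promoters, numbered 2 in *CDC25A*, 3 in *CCNA2*, 3 in *CDK4* and 7 in *CCNE1*, between 0 and 5 at the starts of *CCND3* and 0 or 3 at those of *CDK6*. None of the 9 windows held an AP-1 match, against 4.95% of promoters. A match is a description of letters, and binding was not measured.

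Setting the lines side by side, 6 of the 10 genes differed in their response to corin, where 49.7% of the 16062 genes tested differed (edgeR interaction term, adjusted p under 0.05). *CCND1*, *CCND3*, *CDK6* and *CDK2* had the lower value of the response in 1205Lu-R, and *CDK4* and *CCNA2* had it in 451Lu-R. For *CCNE1*, *CCNE2* and *CDC25A* the test did not detect a difference, and for *CCND2* it was not estimated.

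**Figure D4:**
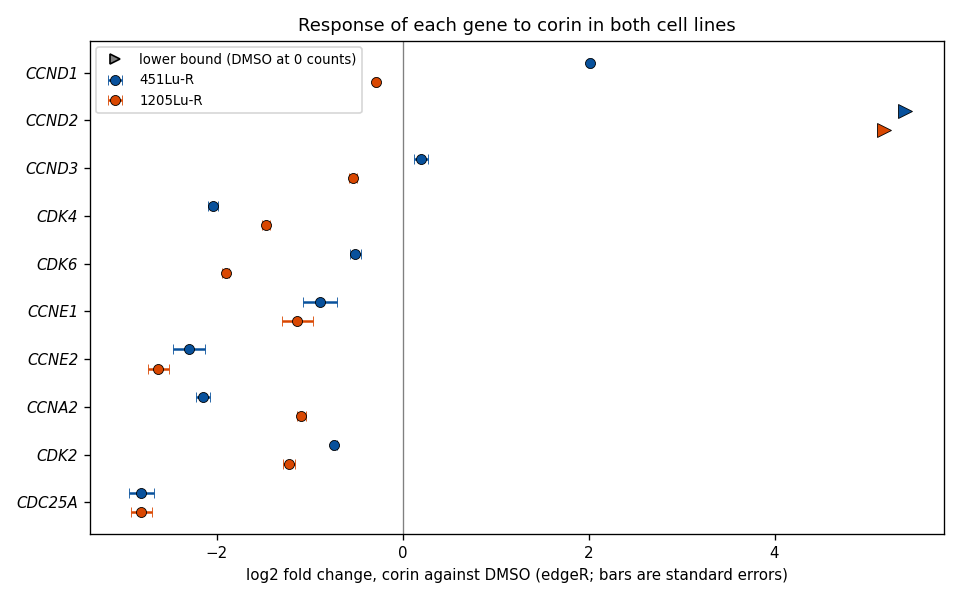
Log2 fold change for corin against DMSO (x axis) for each of the 10 genes in both cell lines (451Lu-R blue, 1205Lu-R orange). Bars are standard errors derived from the edgeR F statistic. Arrowheads for *CCND2* are lower bounds, since its DMSO libraries were at 0, and *CCND1* is the gene with points furthest apart, at 2.01 and -0.28.

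Levels also differed between the lines. Under DMSO, 7 of the genes were higher in 1205Lu-R than in 451Lu-R and 1 was lower, where 38.2% of all genes were higher and 37.2% were lower (edgeR adjusted p under 0.05, all 8 libraries). *CCND1* was 3.25-fold higher in 1205Lu-R (SE 0.030 log2 units, edgeR adjusted p = 2.76e-22), *CCND3* 3.15-fold higher, *CDK6* 2.77-fold higher, *CCNE2* 2.21-fold higher and *CCNA2* 1.74-fold higher. *CDC25A* was 1.47-fold higher and *CCNE1* 1.30-fold higher, the last with an adjusted p of 0.0478 that was lost with DESeq2 (0.155), with library size alone (0.177), without 451Lu-R DMSO replicate 1 (0.327) and without 1205Lu-R DMSO replicate 2 (0.484). *CDK2* was the lower one, with a log2 difference of -2.38 (SE 0.039, edgeR adjusted p = 8.45e-23). *PMEL*, which shares exonic bases with *CDK2*, was also lower in 1205Lu-R. Its part in the *CDK2* difference, here and under corin, was not tested. *CDK4* did not differ beyond its spread (log2 difference 0.07, SE 0.039, adjusted p = 0.104).

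Under corin, 5 genes were higher in 1205Lu-R and 3 were lower, where 38.0% of all genes were higher and 39.0% were lower. The higher ones were *CCNA2*, 3.53-fold, *CCND3*, 1.85-fold, *CCNE2*, 1.71-fold, *CDK4*, 1.52-fold, and *CDC25A*, 1.43-fold. Without 451Lu-R corin replicate 1 the number that were higher was 3, as the calls for *CCNE2* (edgeR adjusted p = 0.0765) and *CDC25A* (0.0612) were lost. The *CDC25A* call was also lost without 451Lu-R corin replicate 2 (0.0747) and without 1205Lu-R corin replicate 2 (0.140). *CCND1*, lower in 451Lu-R under DMSO, was lower in 1205Lu-R under corin (log2 difference -0.63, SE 0.019, edgeR adjusted p = 4.40e-18), and *CDK2* was lower there as well (log2 difference -2.91, SE 0.052, adjusted p = 5.55e-22). *CCND2* was lower in 1205Lu-R (log2 difference -0.41, SE 0.16, adjusted p = 0.0226), a call lost with DESeq2 (0.234), with library size alone (0.0659), without 451Lu-R corin replicate 1 (0.172), without 1205Lu-R corin replicate 2 (0.163) and, in the opposite direction, when ENSG00000285901 was added (log2 difference 0.47, adjusted p = 0.0529). *CDK6* (log2 difference 0.04, adjusted p = 0.585) and *CCNE1* (0.09, adjusted p = 0.716) did not differ beyond their spread.

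Per kilobase, these levels placed *CDK2* transcripts above those of its cyclins in 451Lu-R. *CDK2* shares exonic bases with *PMEL*, which was high in 451Lu-R and low in 1205Lu-R, and the part of *PMEL* in the ratios below was not tested. The ratio of summed E cyclins to *CDK2* was 0.0766 and 0.0900 in 451Lu-R under DMSO and 0.0576 and 0.0479 under corin, against 0.676 and 0.827, and 0.450 and 0.520, in 1205Lu-R. The ratio of *CCNA2* to *CDK2* went from 0.244 and 0.251 to 0.0927 and 0.0933 in 451Lu-R and was 2.14 and 2.36 under DMSO and 2.53 and 2.41 under corin in 1205Lu-R. The 2 lines did not overlap in either ratio. Lower *CCNA2* relative to *CDK2* under corin was seen in 451Lu-R, and the 1205Lu-R libraries under corin lay slightly above those under DMSO.

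Genes that act beside these cyclins and kinases were counted in 7 lists, and each count stands beside the 41.3% of all genes tested that rose and 38.6% that fell in 451Lu-R, the 40.4% and 37.8% in 1205Lu-R, and the median log2 fold change of 0.03 over all genes in each line. The CDK inhibitors, proteins that bind and block cyclin–CDK complexes, included 5 genes that rose and 2 that fell of 7 in 451Lu-R (median log2 fold change 1.46). With DESeq2, with library size alone and with no filter, 4 rose. In 1205Lu-R 3 rose and 2 fell of 5 tested (median 0.44), and *CDKN2A* and *CDKN2B*, which encode inhibitors of CDK4 and CDK6, had 0 counts in all 4 libraries of that line. *CDKN1A*, which encodes p21, went from 2.78 ± 0.306 to 284 ± 1.29 CPM (SD, n = 2) in 451Lu-R, up by 6.77 log2 units, and from 104 ± 1.23 to 494 ± 7.30 CPM in 1205Lu-R, up by 2.18 (edgeR adjusted p = 1.92e-23 and 1.10e-22). *CDKN2B* rose in 451Lu-R by 2.53 log2 units. *CDKN1C* rose in 1205Lu-R by 2.84 (SE 0.40), from 0.459 ± 0.117 CPM, near the floor of 3 counts, to 3.51 ± 0.125 CPM. *CDKN2C* fell by 1.85 in 451Lu-R and fell by 1.66 in 1205Lu-R, and *CDKN1B*, which encodes p27, fell by 0.84 and fell by 0.48.

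Of the 18 genes of the RB and E2F list, 2 rose and 13 fell in 451Lu-R (median log2 fold change -1.0), and 3 rose and 13 fell in 1205Lu-R (median -0.92). *RB1* rose in 451Lu-R, from 82.7 ± 2.95 to 156 ± 5.69 CPM, by 1.02 log2 units (edgeR adjusted p = 2.72e-14). *E2F3* fell there (log2 fold change -2.54), and *E2F2* fell in 1205Lu-R (-1.93), both activators of S phase genes. *E2F6*, a repressor of the family, rose in both lines, by 0.48 and 0.40 log2 units respectively, and *E2F5* rose in 1205Lu-R by 1.46. *LIN9*, a subunit of the DREAM and MuvB complexes, fell by 1.82 and fell by 1.32.

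The S phase entry list, which holds replication licensing and nucleotide synthesis genes, had 0 genes that rose and 18 that fell of 21 in 451Lu-R (median log2 fold change -1.34), and 1 that rose and 18 that fell in 1205Lu-R (median -1.29). The count of 0 in 451Lu-R was 0 also with DESeq2 and at an unadjusted p under 0.05 with either tool. The helicase genes were among the furthest, with *MCM7* going from 273 ± 0.599 to 64.1 ± 2.54 CPM in 451Lu-R and *MCM5* from 179 ± 4.35 to 24.6 ± 1.46 CPM in 1205Lu-R (edgeR adjusted p = 8.55e-20 and 8.40e-22). *MCM2* fell in 1205Lu-R (log2 fold change -2.22), and *UHRF1*, which maintains DNA methylation at replication, fell in 451Lu-R (-2.12). The exception was *RRM2*, a subunit of ribonucleotide reductase, which rose in 1205Lu-R from 513 ± 4.13 to 887 ± 12.1 CPM, by 0.72 log2 units (edgeR adjusted p = 8.31e-17).

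Genes of G2 and M phase split further between the lines, with 1 that rose and 8 that fell of 9 in 451Lu-R (median log2 fold change -1.87) and 3 that rose and 6 that fell in 1205Lu-R (median -0.38). The difference between the lines in these counts was not tested. *PLK1* and *CCNB1*, which drive mitotic entry, fell in 451Lu-R (log2 fold changes -2.39 and -2.17). In 1205Lu-R *MYBL2* and *FOXM1*, transcription factors of late cell cycle genes, fell (-1.34 and -1.20), and *CDK1*, the mitotic kinase, rose (0.68). *CCNA1*, a cyclin best known from the germ line, rose from 4.54 ± 0.456 to 44.3 ± 2.11 CPM in 451Lu-R and from 16.2 ± 1.51 to 53.7 ± 0.432 CPM in 1205Lu-R, by 3.38 and 1.66 log2 units (edgeR adjusted p = 5.63e-16 and 3.76e-14).

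Among 9 genes of CDK activation and braking, 2 rose and 7 fell in 451Lu-R (median -1.50), and 3 rose and 4 fell in 1205Lu-R (median -0.17). *MNAT1* and *CCNH*, subunits of the CDK-activating kinase, rose in both lines, with log2 fold changes of 1.02 and 0.49 in 451Lu-R and of 0.77 and 0.65 in 1205Lu-R. *CHEK1* and *PKMYT1*, kinases that restrain CDKs, fell in both, with log2 fold changes of -1.64 and -1.62 in 451Lu-R and of -1.34 and -1.77 in 1205Lu-R. Of 15 genes of cyclin turnover, 5 rose and 8 fell in 451Lu-R (median -0.55), and 4 rose and 6 fell in 1205Lu-R (median -0.19), where the share that fell was close to that over all genes. *SKP2* and *CDC20*, which direct ubiquitin ligases to cell cycle proteins, fell in 451Lu-R (-1.48 and -1.83). *FBXO31* rose in both lines, by 0.48 and 0.59, *GSK3B*, the kinase that marks cyclin D1 for export and degradation, rose in 451Lu-R by 0.53, and *CKS2* rose in 1205Lu-R by 0.97, where the ligase subunits *RBX1* and *CUL1* fell by 1.08 and fell by 0.91.

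The other cyclins and CDKs, most of which act in transcription or outside the cell cycle, served as the nearest group for comparison. Of these 22 genes, 7 rose and 8 fell in 451Lu-R (median 0.06), and 8 rose and 12 fell in 1205Lu-R (median -0.27). The share that fell in 451Lu-R and the share that rose in 1205Lu-R were close to those over all genes. *CDK12*, a kinase of transcription elongation, fell by 1.14 in 451Lu-R and fell by 0.94 in 1205Lu-R. *CDK18* rose by 1.35 and 2.87, *CDK9* rose in 1205Lu-R by 1.08, and *CCNG1* fell in 451Lu-R by 0.92. *CDK14* had 1 count in each 451Lu-R library under DMSO and 7.73 CPM under corin, at least 26.4-fold higher against the floor of 3 counts, whereas it fell in 1205Lu-R by 1.13.

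**Figure D5:**
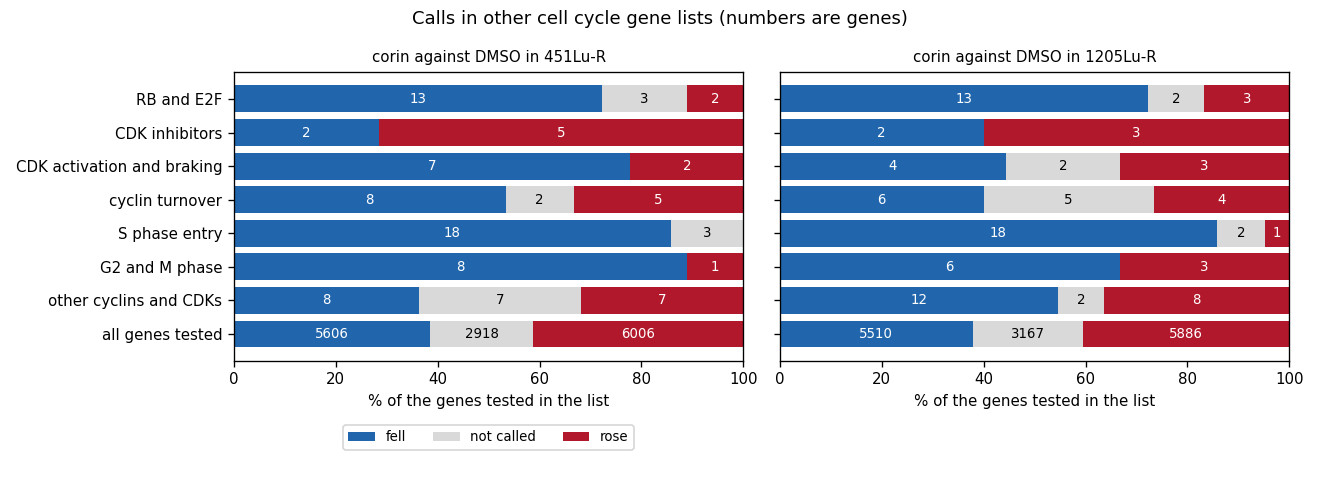
Share of the genes tested in each of 7 lists, and of all genes tested in the bottom bar (x axis, %), that fell (blue), were not called (grey) or rose (red) under corin at an edgeR adjusted p under 0.05, with 451Lu-R on the left and 1205Lu-R on the right, with the number of genes printed on each segment. Falls take the larger part of the S phase entry list, with 18 of 21 genes in either line, and rises take the larger part of the CDK inhibitor list.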

How the data were processed

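Poly(A) RNA was sequenced on an Illumina NextSeq. Per the labels and methods, the authors ran Trimmomatic on paired reads and Salmon on GENCODE 32 transcripts, and deposited expected counts (Salmon's estimated counts per gene, not normalized) for 8 corin and DMSO libraries. Tool versions and strandedness are not given in the sources used here. For the 8 PLX4032 libraries, the deposited tables hold only results of the authors' own tests (a log2 fold change and an adjusted p-value per gene), which were not used. Chi-square per degree of freedom between 2 replicates was 1.34 to 1.40.

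Names (34052 of 34228 genes), loci and exonic lengths came from GENCODE 44 (GRCh38). Counts were rounded and tested in R 4.3.3 with edgeR 4.0.16 (filterByExpr, TMM, glmQLFit, glmQLFTest, two-sided, Benjamini-Hochberg adjustment over all genes tested) at an adjusted p under 0.05. Corin was compared with DMSO on the 4 libraries of each line, and the lines and the interaction on all 8. Each SE is derived, as the absolute log2 fold change divided by the square root of the edgeR F statistic. CPM are counts scaled to a library total of 1000000. Groups at 3 counts or fewer in each library gave lower bounds. Exact permutation tests used scipy 1.17.1.

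The 10 genes, 7 lists (101 genes) and markers were chosen with earlier results of these data known. From each list, no more than 2 top risers and 2 top fallers in each line were named, if called and with a mean of at least 1 CPM. For *CCND1* and *CCND2*, the 3 most similar profiles were named (root mean square difference of centered log2 CPM, mean of at least 5 CPM). *CDKN2A* and *CDKN2B* in 1205Lu-R and genes with shared exons were named after their values were seen.

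Alternatives were DESeq2 1.42.0, RLE size factors, library size alone, no filter, a minimum mean of 1 CPM, all 8 libraries in one fit, a replicate block, a stricter threshold, leaving out each library, and other forms of the D cyclin ratio. Adding ENSG00000285901 to *CCND2*, canonical transcript length and no division by length were chosen after seeing the data. On simulated data, false calls made up more of edgeR's calls than the nominal rate, and less of DESeq2's. The simulation changed a much smaller share of genes than was called here, so it did not give the error rate of these calls. Calls for the 10 genes that DESeq2 did not make are named beside them. Several list counts in 451Lu-R were lower with DESeq2, such as 12 falls in place of 13 in the RB and E2F list.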

Additional observations from a re-analysis of the deposited data

Results flagged for a closer look

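For 6 of the 10 genes the response to corin differed between the 2 cell lines, tested with an interaction term (edgeR, all 8 libraries). As log2 fold change in 1205Lu-R minus that in 451Lu-R, the differences were -2.33 for *CCND1*, -1.43 for *CDK6*, -0.77 for *CCND3* and -0.53 for *CDK2*, and 1.02 for *CCNA2* and 0.53 for *CDK4*. Only for *CCND1* and *CCND3* did the responses have opposite signs, and the 451Lu-R call for *CCND3* was the one lost under other settings. The background of 49.7% of genes with such a difference applies to this count. What underlies the differences was not tested.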

How the results depend on the processing

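The log2 ratio of *CCND2* to *CCND1* moved most with the processing. It changed by 5.09 (451Lu-R) and 6.98 (1205Lu-R) with 1 count added in place of 0.5, by 7.43 and 6.60 with ENSG00000285901 added, and by -1.45 and -0.090 with *CCND3* added to *CCND2*. Leaving out each library in turn gave 5.96 to 6.20 and 7.89 to 8.06. With the canonical transcript length, the mean ratio of *CCNE2* to *CCNE1* in 451Lu-R under DMSO was 1.13 and that of D cyclins to *CDK4* and *CDK6* was 0.945, each on the other side of 1, and the other ratios stayed on their side. At a fold change of at least 4 and an adjusted p under 0.001, the genes counted as lower numbered 4 (451Lu-R) and 2 (1205Lu-R), against 2.72% and 1.43% of all genes, and those counted as higher 2 and 1, against 12.4% and 11.3%. The number higher in 1205Lu-R under corin ran from 3 to 5 when a library was left out, and *CCND2* in that comparison turned to 0.47 with ENSG00000285901 added. Scaling to library size alone moved the median of all genes for the difference between the lines from -0.01 to 0.20, with all 6 called differences kept in direction and call. A replicate block, run although same-numbered libraries did not deviate together (r from -0.064 to 0.0362), left the calls at 3 up and 7 down for 451Lu-R, 1 and 9 for 1205Lu-R, 6 that differed between the lines, 7 and 1 under DMSO, and 5 and 3 under corin. The replicates show low spread, and 2 libraries per group limit every ratio without a model to description.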

Other observations

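Over the 8 libraries, the genes whose centered log2 profile was most like that of *CCND1* were *INF2*, *CELSR1* and *CDC42EP3*, with root mean square differences of 0.14, 0.15 and 0.16 among 11498 genes compared. *INF2*, which encodes a formin, was at 18.3 and 21.8 CPM in 451Lu-R under DMSO, 63.0 and 61.2 under corin, 58.0 and 56.9 in 1205Lu-R under DMSO and 46.5 and 44.4 under corin. Among the other 9 cyclins and kinases the nearest to *CCND1* was *CCND3*, at 0.75 and place 2229. The genes most like *CCND2* were *SPNS2*, *MYCT1* and *HPCAL4*, at 0.13, 0.14 and 0.21. *SPNS2*, which encodes a sphingosine-1-phosphate exporter, was at 0 in all 4 DMSO libraries, at 12.1 and 11.5 CPM in 451Lu-R under corin and at 10.2 and 11.9 CPM in 1205Lu-R under corin. *HPCAL4* was at 0.825 CPM or less in the 4 DMSO libraries and at 78.5 to 112 CPM in the 4 corin libraries. The points are 4 groups of 2 libraries, so these likenesses describe 4 levels.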
